A study of Rattus norvegicus with 4 samples.

Results

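The transcripts described here are those whose probes passed the scanner software's detection test in the Cy3 channel on all 4 arrays of the series and in the Cy5 channel on none. There were 12 such probes among 30367, and 8 of them could be named as rat genes, among 15715 named genes on the array. A probe counted as detected when its flag for a signal well above background was set, with the flags of duplicate spots averaged and a mean of 0.5 or more counted as set. Control spots and Hox genes were left out, and no Hox probe met the criteria (0 probes). The members were therefore chosen by the measured signals, so their difference between the channels is a description and was not tested.

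RNA came from spinal dorsal horn, where sensory nerve fibres from the body end, of male rats aged 6 weeks on day 10. Of the 4 two-colour arrays (Agilent), 2 belonged to rats given oxaliplatin, a platinum chemotherapy drug that can cause a painful neuropathy, and 2 to rats given vehicle. Per the labels, Cy5 carried the RNA of these oxaliplatin or vehicle rats and Cy3 the RNA of untreated rats, in the same orientation on every array, while the extract protocol names Cy3 labelling only. The labels call the arrays of a group biological replicates, and the sources used here do not give the number of rats behind each array. Dye and RNA source therefore cannot be told apart. Each group was hybridised on a slide of its own, so slide and group cannot be told apart either. Of 24 probes for neurons of the dorsal horn, 23 were well above background on all 4 arrays in Cy5 and 23 in Cy3. The share of probes well above background ranged over the arrays between 82.6% and 85.4% in Cy5 and between 76.8% and 88.1% in Cy3, with the lowest share on oxaliplatin replicate 2.

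The named members were Dmrt3 and Hmx3, transcription factors of developing neurons, Nox4, an NADPH oxidase that makes hydrogen peroxide, Pklr, the pyruvate kinase of liver and red cells, Il1rap, the accessory chain of the interleukin-1 receptor, Cenpf, a protein of the mitotic kinetochore, and the olfactory receptors Or12k7 and Or4f15. Dmrt3 is known in the mouse as a marker of a class of spinal interneurons that coordinate locomotion. Hmx3 is known in the mouse for its part in the development of the inner ear and hypothalamus. Olfactory receptors are G protein-coupled receptors that neurons of the nose use to detect odorants.

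None of the 8 genes (0 genes) belonged to any of 46 marker lists for cell types of the nervous system, blood and peripheral organs, which held 566 genes present on the array. Over all named genes 0.0509% were members, so lists of this size would mostly hold none, and the count says little about which tissues the members mark. Dmrt3 and Hmx3 are both in a list of 12 spinal interneuron factors on the array, but that list was drawn up after the members were known and holds them by choice. Of the genes detected in Cy5 only, which numbered 43 probes and 25 named genes, 3 lists held 1 gene each: the midbrain and monoamine neuron list, the sensory ganglion neuron list and the testis list.

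The label of detection in Cy3 only did not mean that Cy5 was without signal. By the software's less strict flag, for a signal that is positive and significant, 11 of the 12 probes had Cy5 signal on all 4 arrays, and ENSRNOT00000032786 had it on 2. Before any correction, the pixel signal of the spots was 57 to 103 in Cy5, over a local background of 48.5 to 73, and 50.5 to 83.5 in Cy3, over a local background of 29.5 to 48. Raw Cy5 signal was thus the higher in 43 of the 48 pairs of probe and array. After subtraction of the local background Cy5 remained the higher in 7 of the 48. In the software's processed signal, which is background-subtracted and normalised between the dyes (arbitrary units), Cy5 lay between 3.54 and 31.0 and Cy3 between 14.8 and 71.6. Cy5 was above Cy3 in 1 of the 48 pairs, for Pklr on vehicle replicate 1. In the normalised signals used further below, an offset of 50 was added to both channels, which pulls ratios of dim probes towards 1. There the members' Cy3 exceeded Cy5 by 1.07 to 1.32 fold, with Cy5 raised to its lowest detected level where below it. A normalised log2 Cy5/Cy3 ratio below -1 on all 4 arrays was found for 84 probes other than Hox genes. Of those, 0 were members, so by this ratio the members did not differ most.

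**Figure D1:**
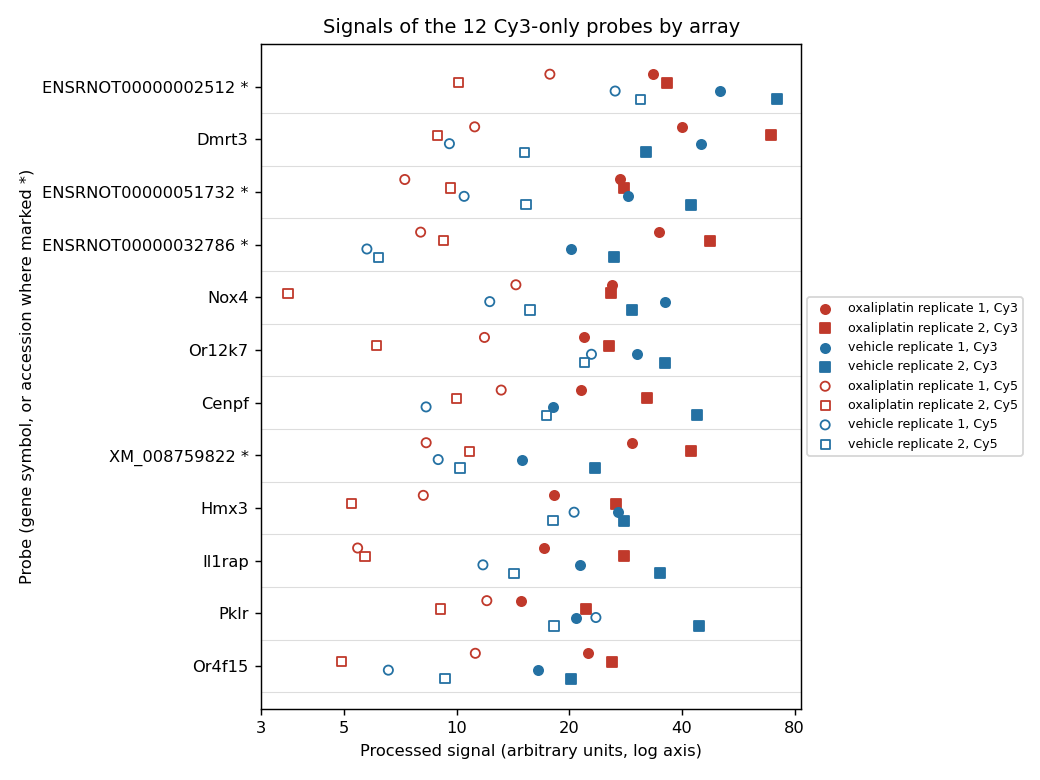
Processed signal (arbitrary units, log axis) of each of the 12 probes on each array, with open symbols for Cy5 and filled symbols for Cy3, oxaliplatin arrays in red and vehicle arrays in blue, circles for replicate 1 and squares for replicate 2. Nearly all filled symbols lie to the right of the open ones, yet no Cy3 signal exceeds 71.6, and for Pklr on vehicle replicate 1 the order is turned.

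All 12 probes were dim in Cy3. Their signals ranked among the lowest 1.41% of the 23065 probes that were well above background in Cy3 on all 4 arrays, whose median processed signal was 920 against a median of 28.0 for the members. This is a statement on signal over background, since signals of different probes do not give relative transcript levels. Of those 23065 probes, 22873 were also well above background in Cy5 on all 4 arrays, and the members made up 0.0520%.

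**Figure D2:**
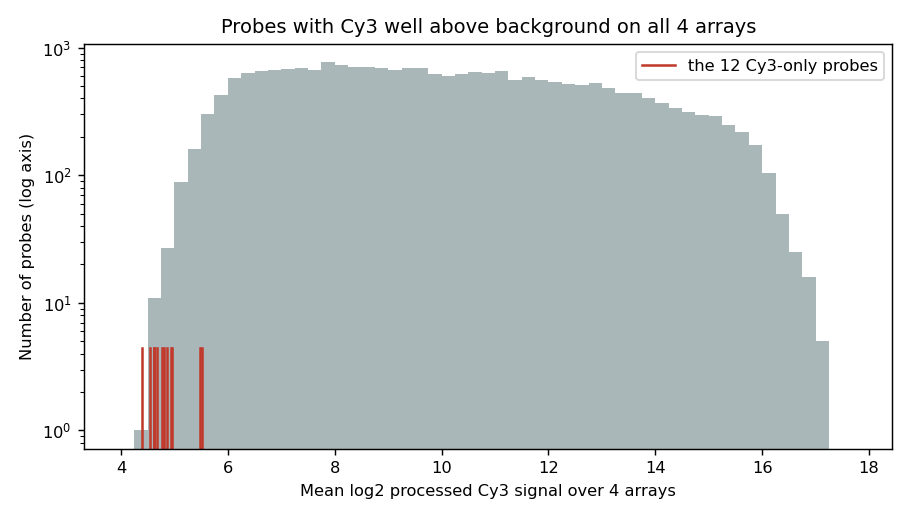
Histogram of the mean log2 processed Cy3 signal over 4 arrays for the probes well above background in Cy3 on all arrays other than the members (grey, number of probes on a log axis), with the 12 members as red lines. All red lines lie at the left edge of the distribution.

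Most members met the criteria by 1 spot of a pair. Of the 12 probes, 11 were printed as 2 spots and 1 as a single spot. In 26 of the 44 pairs of probe and array with 2 spots, only 1 of the 2 Cy3 spots carried the flag. The brighter spot of a pair exceeded the dimmer by a median ratio of 1.31 and by at most 5.50, for Pklr. Just 2 probes carried the flag on every spot of every array: Dmrt3, with 8 of 8 spots, and the probe for the unnamed transcript ENSRNOT00000002512, with 4 of 4.

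Dmrt3 was the named gene with the most complete detection. Its processed Cy5 signal was 11.2 and 8.89 on the oxaliplatin arrays and 9.55 and 15.2 on the vehicle arrays, replicate 1 being given before replicate 2 here and for the other genes. Its processed Cy3 signal was 40.1 and 69.3 on the oxaliplatin arrays and 45.1 and 32.0 on the vehicle arrays. Every Cy3 value lay above every Cy5 value, which the choice of members favoured and which also held for other members such as Nox4. In Cy3 the groups of Dmrt3 overlapped. Its duplicate spots differed by a ratio of at most 1.03.

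Hmx3 carried the Cy3 flag on 4 of its 8 spots, 1 on each array. Its processed Cy5 signal was 8.13 and 5.22 on the oxaliplatin arrays and 20.6 and 18.1 on the vehicle arrays, and its Cy3 signal was 18.2 and 26.6 on the oxaliplatin arrays and 27.0 and 28.0 on the vehicle arrays. Here Cy5 on vehicle replicate 1 exceeded Cy3 on oxaliplatin replicate 1. Both Cy3 values of the oxaliplatin arrays lay below those of the vehicle arrays in this signal, which is not scaled between arrays.

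The 2 enzymes differed in how evenly they were measured. Nox4 had processed Cy5 signals of 14.4 and 3.54 on the oxaliplatin arrays and 12.2 and 15.7 on the vehicle arrays. In Cy3 Nox4 had 25.96 and 25.8 on the oxaliplatin arrays and 36.0 and 29.4 on the vehicle arrays. The oxaliplatin arrays were thus the lower in this signal, which is not scaled between arrays. For Pklr the Cy5 signals were 12.02 and 9.03 on the oxaliplatin arrays and 23.5 and 18.2 on the vehicle arrays, and the Cy3 signals 14.8 and 22.1 on the oxaliplatin arrays and 20.9 and 44.3 on the vehicle arrays. The groups overlapped in Cy3 for Pklr, whose duplicate spots differed by ratios of 1.30 to 5.50.

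Il1rap, which joins the receptors for interleukin-1 and interleukin-33 to pass on their signal, had processed Cy5 signals of 5.43 and 5.68 on the oxaliplatin arrays and 11.7 and 14.2 on the vehicle arrays. Its Cy3 signals were 17.0 and 27.9 on the oxaliplatin arrays and 21.3 and 35.0 on the vehicle arrays, and the groups overlapped. A different Il1rap probe, designed on another RefSeq transcript of the gene, was well above background on all 4 arrays in both channels. That probe had a log2 Cy5/Cy3 ratio above 0 on every array, 0.83 and 0.71 on the oxaliplatin arrays and 0.55 and 0.65 on the vehicle arrays. The gene as such was thus not limited to Cy3. The member probe had ratios below 0, but its choice favoured that direction and its Cy5 signal was not well above background. An opposite direction of the 2 probes was therefore not measured.

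Cenpf had processed Cy5 signals of 13.1 and 9.97 on the oxaliplatin arrays and 8.27 and 17.3 on the vehicle arrays, and Cy3 signals of 21.4 and 32.3 on the oxaliplatin arrays and 18.1 and 43.8 on the vehicle arrays. The oxaliplatin values fell inside the range of the vehicle values. Another Cenpf probe was well above background in Cy5 on 2 arrays and in Cy3 on 4, with log2 ratios of -0.30 and -0.052 on the oxaliplatin arrays and -0.044 and -0.29 on the vehicle arrays. Its ratios were below 0 on every array, but this probe was dim too, with a mean processed Cy3 signal of 38.1. Those of the member probe were -0.20 and -0.33 on the oxaliplatin arrays and -0.094 and -0.36 on the vehicle arrays. The choice of the member probe favoured this direction, so its ratios add no separate support.

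Of the olfactory receptors, Or12k7 had processed Cy5 signals of 11.9 and 6.11 on the oxaliplatin arrays and 22.9 and 22.0 on the vehicle arrays, and Cy3 signals of 21.9 and 25.5 on the oxaliplatin arrays and 30.3 and 36.1 on the vehicle arrays. Or4f15 had Cy5 signals of 11.2 and 4.91 on the oxaliplatin arrays and 6.56 and 9.29 on the vehicle arrays, and Cy3 signals of 22.4 and 26.02 on the oxaliplatin arrays and 16.5 and 20.2 on the vehicle arrays. In this Cy3 signal, which is not scaled between arrays, the oxaliplatin arrays were thus the lower for Or12k7 and the higher for Or4f15. Olfactory receptors are a large family with similar sequences, and whether these probes bind other members was not tested. The array carried 1189 probes for 1150 named olfactory receptors, and 450 of these probes were well above background in neither channel on any array. More olfactory receptor probes were detected on more arrays in Cy5 than in Cy3 (197) than the reverse (137, both members among them). All 30367 probes leaned the same way, with 2275 detected on more arrays in Cy5 and 1583 on more in Cy3. The lean is thus not particular to olfactory receptors.

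The 4 unnamed probes had processed Cy3 signals between 14.9 and 71.6. ENSRNOT00000002512 had Cy3 signals of 33.5 and 36.5 on the oxaliplatin arrays and 50.7 and 71.6 on the vehicle arrays. The oxaliplatin arrays were the lower in this unscaled signal. ENSRNOT00000032786 had 34.7 and 47.6 on the oxaliplatin arrays and 20.1 and 26.3 on the vehicle arrays, with the oxaliplatin arrays the higher.

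Relatives of the members were looked at in families chosen after the members were known. Of 8 probes for the Dmrt family, 3 were well above background on all 4 arrays in Cy5 and 3 in Cy3. Dmrt2, a transcription factor gene that lies next to Dmrt3 in the reference annotation, was well above background in Cy5 on 0 arrays and in Cy3 on 3, and missed the criteria by Cy3 on oxaliplatin replicate 2. Its Cy5 signals were 7.12 and 3.66 on the oxaliplatin arrays and 5.42 and 14.2 on the vehicle arrays, and its Cy3 signals 31.5 and 26.4 on the oxaliplatin arrays and 33.7 and 53.5 on the vehicle arrays, so it came close to Dmrt3 in its flags. Dmrt1, which neighbours Dmrt3 as well, was detected in neither channel on any array (0 arrays). Hmx2, the neighbour of Hmx3, was not detected on any array either (0 arrays), while Hmx1 was well above background on all 4 arrays in both channels. Factors of spinal interneurons, 12 genes that include the members Dmrt3 and Hmx3, had 9 of 14 probes well above background on all 4 arrays in Cy5 and 10 in Cy3, both members being among the 10 by the way they were chosen.

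Genes of dividing cells, the company of Cenpf, had 15 of 24 probes well above background on all 4 arrays in Cy5 and 16 in Cy3. Of these 24 probes, 1 was detected on more arrays in Cy5 and 7 on more arrays in Cy3. Those 7 were the member probe for Cenpf, chosen for this, and other probes for Cenpf, Bub1, Cdca5 and Kif2c. Some of them share a gene, and all were dim, with mean processed Cy3 signals of 16.9 to 38.1. Over all 30367 probes 2275 were detected on more arrays in Cy5 and 1583 on more in Cy3. Whether genes of dividing cells lean to Cy3 was not tested. Probes for Bub1, a kinase of the mitotic checkpoint, Kif2c, a kinesin that takes microtubules apart, and Cdca5, which holds sister chromatids together, missed the criteria by 1 flag, each through a probe with Cy5 on 0 arrays and Cy3 on 3 that lacked the Cy3 flag on oxaliplatin replicate 2. Bub1 had another probe that was well above background on all 4 arrays in both channels, and Cdca5 one that was so on 4 arrays in Cy5 and on 3 in Cy3. Of 10 probes for NADPH oxidases and their subunits, 8 were well above background on all 4 arrays in Cy5 and 9 in Cy3, and Nox4 was the 1 probe detected on more arrays in Cy3. Both probes for Pkm, the pyruvate kinase of most tissues, were detected on all 4 arrays in both channels.

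Besides the 12 members, 96 probes missed the criteria by a single flag. For 79 of them the missing flag was Cy3 on 1 array, and for 69 that array was oxaliplatin replicate 2, where the median pixel signal in Cy3 was 284, against 494 to 564 on the other arrays. The other 17 had a Cy5 flag on 1 array. Among named genes of this kind the highest mean log2 Cy3 signals were those of Snx33, a sorting nexin, Slc26a3, a chloride-bicarbonate exchanger, and Mc3r, a melanocortin receptor. Snx33 and Slc26a3 had a Cy5 flag on 1 array, vehicle replicate 2 and oxaliplatin replicate 1 in turn. Mc3r lacked the Cy3 flag on oxaliplatin replicate 2, and its Cy3 signals were 555 and 12.1 on the oxaliplatin arrays and 15.1 and 29.3 on the vehicle arrays, with 1 array far above the other 3. Mean processed signals were 23.4 in Cy5 and 73.9 in Cy3 for Snx33 just outside the criteria, and 7.99 in Cy5 and 21.3 in Cy3 for Or4f15 just inside.

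**Figure D3:**
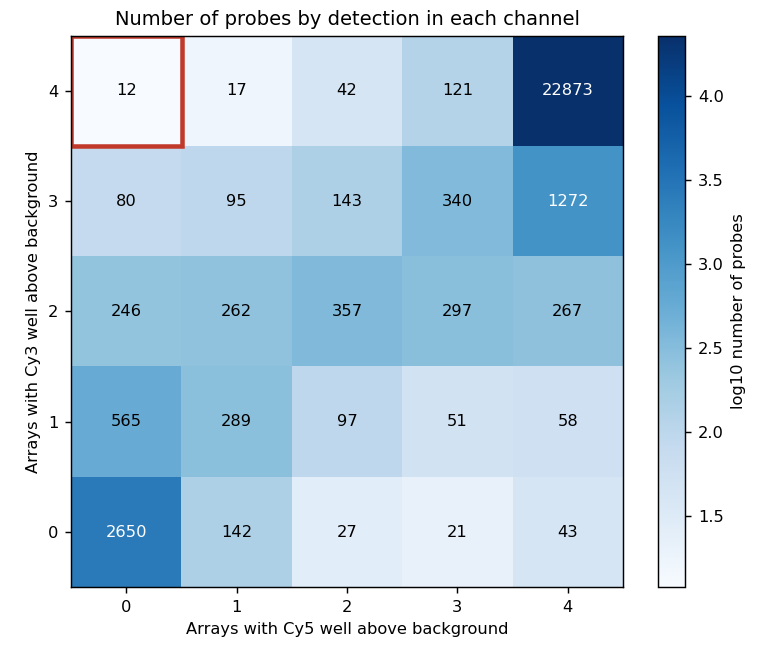
Number of probes by the number of arrays on which Cy5 (horizontal) and Cy3 (vertical) were well above background, with the shade on a log10 scale. The red square marks the 12 members, against 43 probes in the opposite corner and 22873 detected on all arrays in both channels.

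The size of the set depended on the rule and on single arrays. With the flag required on every spot it held 2 probes. With the less strict flag in both channels it held 84 probes, and 0 of the 12 members. Without oxaliplatin replicate 2 it grew to 87 probes, 46 of them named, and without oxaliplatin replicate 1 to 27. Without vehicle replicate 2 it grew to 20, and without vehicle replicate 1 it stayed at 12. Leaving an array out of the rule can only keep or enlarge the set, so only the amount of growth is informative. The Cy5-only set held 43 probes, of which 35 carried the flag on every spot, with a median processed Cy5 signal of 43.9 and a highest of 996.

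**Figure D4:**
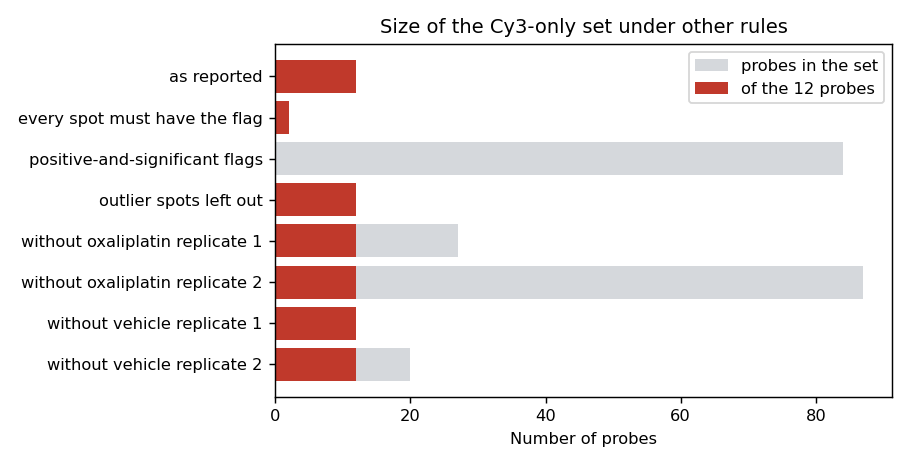
Number of probes in the Cy3-only set under the rule as reported and under 7 others (grey bars), with the part that belongs to the 12 members in red. The set holds between 2 and 87 probes, and the less strict flag shares 0 with the members.

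The oxaliplatin and vehicle arrays were also set side by side within Cy3. Per the labels this channel held RNA of untreated rats on every array, so the values are not a measure of the drug's effect in the treated rats. The members were chosen by their Cy3 flag on each of these arrays, and oxaliplatin replicate 2 was the array on which most other probes failed, so a high signal on an oxaliplatin array was favoured by the choice. The members' differences between the groups are therefore a description with no test, and the shares of all probes beside them are given as background only. Over all 26417 probes 0 passed in either direction (0%; limma, Benjamini-Hochberg), while 5549 had an unadjusted p under 0.05, 9.83% of probes being higher on the oxaliplatin arrays and 11.2% lower.

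The direction of the members in Cy3 depended on the scale. In the normalised log2 signal the difference of all 12 was above 0, with a median of 0.099 and a range of 0.0042 to 0.46, against a median of -0.030 over all probes, of which 46.5% were above 0. Both oxaliplatin arrays lay above both vehicle arrays for 8 members and below for 0. Over all probes this held for 25.9% and 32.2%. The choice of members favoured this direction, so the values over all probes are background only and no measure for the members. In the processed signals as printed above, both oxaliplatin arrays were above both vehicle arrays for 3 members and below for 5. These signals were not scaled between arrays, so differences in brightness between whole arrays remain in them. After scaling each array's processed signal to its 75th percentile, both oxaliplatin arrays were above for 3 and below for 1. The difference was then above 0 for 8 members and below for 4, with a median of 0.10 against -0.17 over all probes. Shares over all probes were not computed for the processed signals, so these counts have no background beside them. Dmrt3 had a normalised difference of 0.36 ± 0.20 (moderated SE from limma, n = 2 arrays per group). This SE draws partly on the spread shared by all probes, so it is not the spread of a probe's own arrays alone. The log2 signals of Dmrt3 were 6.75 and 7.18 on the oxaliplatin arrays and 6.73 and 6.49 on the vehicle arrays. The values 6.75 and 6.73 lay close together, and in the processed signal these 2 arrays stood in the opposite order. ENSRNOT00000032786 differed by 0.46 ± 0.17, with 6.82 and 7.13 on the oxaliplatin arrays and 6.51 and 6.52 on the vehicle arrays. Or4f15 differed by 0.23 ± 0.14, and on all 3 of these scales its oxaliplatin arrays were the higher. The same held for ENSRNOT00000032786 and for the unnamed transcript XM_008759822, which differed by 0.39 ± 0.17 in the normalised signal. For Nox4, Hmx3, Or12k7 and ENSRNOT00000051732 both oxaliplatin arrays were the higher in the normalised signal and the lower in the processed signal as printed. For ENSRNOT00000002512 they were the lower as printed, and the groups overlapped in the normalised signal. Nox4, Hmx3, Cenpf, Il1rap, Or12k7 and Pklr differed by 0.088, 0.080, 0.12, 0.038, 0.048 and 0.022, each less than its moderated SE of 0.14 to 0.17. A probe's own arrays could lie closer than that SE. Those of Or12k7 were at 6.54 and 6.57 (oxaliplatin) and at 6.49 and 6.52 (vehicle).

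**Figure D5:**
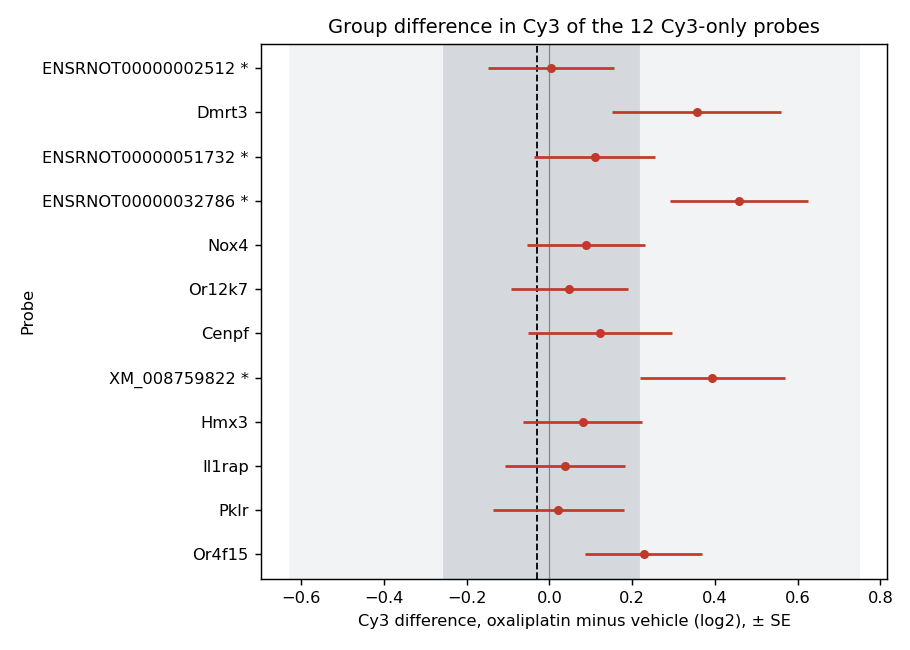
Difference in normalised Cy3 signal, oxaliplatin minus vehicle (log2), of the 12 members with its moderated standard error from limma (n = 2 arrays per group). The dark and light bands hold the middle 50% and 90% of all probes tested, and the dashed line is their median of -0.030. All 12 points lie above 0 on this scale, a direction that the choice of members favours, while in the scanner software's scaled signal 4 lie below 0.

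The comparison of the study's design, oxaliplatin against vehicle arrays in their Cy5/Cy3 ratios, could not be measured for the members, since Cy5 was not well above background on any array (0 arrays). Of their ratio differences, which have only this limited meaning, 11 were below 0 and 1 above, where 52.1% of all probes lay. The oxaliplatin arrays lay apart and below for 6 members and above for 0, against 21.6% and 27.6% of all probes. These are again a description, since the members were chosen by both channels of these arrays. Over all 26417 probes 0 passed (0%; limma), of which 3829 had an unadjusted p under 0.05 (8.96% higher and 5.54% lower). A design of 2 arrays against 2 cannot give a two-sided exact permutation p under 0.333 for a single probe.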

How the data were processed

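Per the file headers, the scanner files were made with Agilent Feature Extraction 10.7.1.1 (8.5.1.1 in the submitters' processing notes). Per the file headers they hold the intensity of each spot and its local background, a processed intensity, its log10 ratio of Cy5 over Cy3, and flags, which hold other values than signals. The authors' deposited value table holds the same log10 ratio (largest gap 0.0050, medians -0.00277, 0, -0.00492 and -0.00316), and its direction follows the labels.

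Groups came from the titles. Median signals were corrected by normexp (offset 50), by loess on each array (controls given weight 0) and by Aquantile across arrays, in limma 3.58.1 under R 4.3.3. Outlier spots (0 in the members) were left out and spots of a probe averaged. Probes with Cy3 well above background on at least 2 arrays were tested (lmFit and eBayes, two-sided, residual df 2, threshold 0.05), a fit tested on simulated data. The p-values rest on the spread between these arrays, which eBayes weights with the spread shared by all probes (prior df 3.68 in Cy3 and 4.61 in the ratio). The number of arrays limits the precision. Accessions matched a symbol for 18758 of 30367 probes, in the table of assembly GRCr8, used for names and neighbours only. Members and lists were chosen with earlier results of these data known, and families of relatives after the members were seen. Named were all members with a symbol and the 3 named genes just outside with the highest Cy3 signal, and relatives, which were chosen after their values were seen. Alternatives concerned flags, scaling, background, filters, replicate block and single arrays.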

Additional observations from a re-analysis of the deposited data

How the results depend on the processing

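The number of probes in the Cy3-only set, 12, was 12 to 87 when an array was left out of the rule, 2 with the flag required on every spot and 84 with the less strict flag. It was 12 without outlier spots. In the Cy3 comparison 31 of all probes passed with median scaling in place of loess and Aquantile. The members' median difference was then 0.48, against 0.11 over all probes. Leaving out an array gave 0 to 2208 called probes, the most without vehicle replicate 1 (40 without vehicle replicate 2), and members' medians of 0.079 to 0.13. In the Cy5/Cy3 ratio leaving out an array gave 3 to 891 called probes, the most with oxaliplatin replicate 1 left out, 12 without oxaliplatin replicate 2, and 11 and 3 with vehicle replicates 1 and 2 left out in turn. With the replicate number as a replicate block 1 probe passed in the ratio and 0 in Cy3, and the members' median in Cy3 was 0.099. Same-numbered arrays correlated by -0.198 in their deviations in Cy3 and by -0.201 in the ratio; with the numbers crossed, chosen after seeing the data, 226 probes passed in the ratio and 0 in Cy3. Single members turned sign in Cy3: with no background correction ENSRNOT00000002512 was at -0.078, and with the scanner software's processed signal it was at -0.38, Pklr at -0.63, Or12k7 at -0.095 and ENSRNOT00000051732 at -0.0044. When an array was left out, ENSRNOT00000002512 ranged between -0.075 and 0.083, Pklr between -0.066 and 0.11, Cenpf between -0.024 and 0.27 and Il1rap between -0.020 and 0.096. The causes were not tested. Every member had a signal near background, which limits these values.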
